A study of Homo sapiens with 9 samples.

Results

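The 8 genes described here are the 4 protease-activated receptor genes F2R, F2RL1, F2RL2 and F2RL3, and the 4 genes RGS2, RGS3, RGS4 and RGS5 of the regulators of G protein signalling. They were taken by gene symbol from the 28514 genes of the count table. They were selected on expression values of these libraries, among them differences from wild-type, so their differences from wild-type are given as descriptions with no test. RNA was measured by poly-A sequencing in CI-huVEC, a line of human vein endothelium made to divide without limit, at passage 31. Each of 3 groups holds 3 libraries. The wild-type libraries 1, 2 and 3 came from untreated cells. The untreated knockout clones 21, 22 and 23 carry CRISPR/Cas9 editing of CCM3 at exon 3 (genotype CCM3 -/-). The same 3 clones make up the treated group, which was grown for 48 h on fibronectin at 5 µg per square centimetre. Each knockout line is a single clone, and the labels do not say so of wild-type, so clonal origin and genotype cannot be told apart. No wild-type cells were grown on fibronectin. The knockout libraries come from 3 clones, each grown with and without fibronectin, so their spread includes differences between clones. Nothing in the labels says that the wild-type libraries came from separate cultures, so their spread may be technical. The p-values measure the spread between these libraries.

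Protease-activated receptors are G protein-coupled receptors that a protease switches on by cutting their extracellular end, which uncovers a ligand tethered to the receptor itself. F2R encodes PAR1, the main thrombin receptor of endothelium, F2RL1 encodes PAR2, which trypsin-like proteases and coagulation factor complexes cut, and F2RL2 and F2RL3 encode PAR3 and PAR4, both cut by thrombin. In endothelial cells these receptors act through G proteins, among them the Gq and Gi families, on calcium and the cell-cell barrier. RGS proteins speed the hydrolysis of GTP on G protein alpha subunits and so shorten the signal, and RGS4 and RGS5 are themselves short-lived proteins removed through the N-degron pathway.

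Total counts ran from 24406001 to 33971610 per library. PDCD10, the symbol for CCM3 in the table, had 49.2 ± 3.49 CPM in the wild-type libraries, 38.5 ± 3.43 in the untreated clones and 36.4 ± 1.30 in the treated clones (SD, n = 3 each), where CPM is the count scaled to a corrected library size. It was lower in every library of both knockout groups than in every wild-type library (log2 fold change -0.36, SE 0.08, adjusted p = 0.00186 by edgeR for the untreated clones), which checks the level of the mRNA and not the edit. Of 12 endothelial markers 12 had a mean of at least 1 CPM in every group, and their summed level was 2837 to 3189 CPM in wild-type, 6351 to 6831 in knockout and 6607 to 7501 on fibronectin. Much of that difference was VWF, which went from 325 to 2685 CPM in the untreated clones, where 7 of the 12 markers rose, 0 fell and 5 did not pass the test, EMCN among them with 32.0 and 12.8 CPM. The summed levels in wild-type and untreated clones were 774 to 819 and 491 to 523 CPM for 6 epithelial markers, 17.3 to 18.0 and 27.5 to 28.6 CPM for 6 leukocyte markers, and 1.95 to 2.04 and 0.268 to 0.838 CPM for 6 fibroblast markers. Of the epithelial markers KRT7 fell from 597 to 212 CPM, while KRT18, KRT8 and EPCAM rose. Most of the leukocyte sum was CD68, with 17.45 CPM in wild-type and 26.06 in untreated clones. PTPRC had 2 and 6 counts over those libraries, CD3E 1 and 3, ITGAM 0 and 35, LYZ 5 and 73, and CD14 8 and 44. Of the 6 leukocyte markers 4 had enough counts to test, ITGAM, LYZ and CD14 only through knockout libraries. All 4 were higher in the untreated clones. The wild-type fibroblast sum was mostly COL1A2, COL3A1 and PDGFRA, with 0.741, 0.749 and 0.455 CPM, while DCN had 1 count and LUM 0. In bulk RNA fewer cells of a type and less RNA per cell cannot be told apart.

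Upstream sequences are shown for F2RL1 and RGS5, the receptor gene and the regulator gene with the lowest levels in knockout relative to wild-type, and for RGS2, whose wild-type level overlapped both knockout groups. They are the 250 bases before annotated starts in RefSeq on GRCh38.p14, read 5′ to 3′ on the gene's strand, and RGS5 has a distal and a proximal start. The windows lie at chr5:76818780-76819029 on the plus strand for F2RL1, at chr1:163321736-163321985 and chr1:163202917-163203166 on the minus strand for the distal and the proximal start of RGS5, and at chr1:192808789-192809038 on the plus strand for RGS2. Capitals mark matches, on either strand, to 5 short motifs chosen after the values were seen, namely CACCC, the GC box GGGCGG, the TEAD motif CATTCC, the AP-1 motif TGANTCA and the TATA motif TATAAA.
F2RL1: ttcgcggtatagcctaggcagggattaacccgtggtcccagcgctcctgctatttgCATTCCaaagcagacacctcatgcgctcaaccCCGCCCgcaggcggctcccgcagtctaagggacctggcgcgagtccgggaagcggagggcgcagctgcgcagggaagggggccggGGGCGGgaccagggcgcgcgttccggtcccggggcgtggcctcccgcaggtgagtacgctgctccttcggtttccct
RGS5, distal start: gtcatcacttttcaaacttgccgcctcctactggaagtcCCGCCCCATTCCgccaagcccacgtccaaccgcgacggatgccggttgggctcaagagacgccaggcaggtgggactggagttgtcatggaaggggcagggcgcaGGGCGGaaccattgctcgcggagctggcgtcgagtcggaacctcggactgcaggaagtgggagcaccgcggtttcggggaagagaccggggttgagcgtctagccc
RGS5, proximal start: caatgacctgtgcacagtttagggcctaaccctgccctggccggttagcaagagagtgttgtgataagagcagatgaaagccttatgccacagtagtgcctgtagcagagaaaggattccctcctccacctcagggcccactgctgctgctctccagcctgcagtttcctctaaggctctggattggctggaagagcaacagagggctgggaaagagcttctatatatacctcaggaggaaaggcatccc
RGS2: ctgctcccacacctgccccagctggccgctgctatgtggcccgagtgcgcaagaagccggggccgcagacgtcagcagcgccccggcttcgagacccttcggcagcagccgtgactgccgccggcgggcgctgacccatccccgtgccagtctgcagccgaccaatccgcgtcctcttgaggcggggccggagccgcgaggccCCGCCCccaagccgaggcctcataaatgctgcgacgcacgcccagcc
The F2RL1 window and the distal RGS5 window each held 2 GC boxes and 1 TEAD motif. The RGS2 window held 1 GC box, and the proximal RGS5 window held no match. GC boxes were found in 42.6% and the TEAD motif in 11.9% of all 35116 windows of this length, against 54.7% for CACCC, 6.57% for AP-1 and 10.7% for TATA. The table gave 15 windows for 7 of the 8 genes, and CACCC was found in 5 of the 5 windows of RGS3, in the single windows of F2RL2 and F2RL3, and in 0 of the 4 windows of RGS4. The F2RL2 window also held an AP-1 motif, and 1 window each of RGS3 and RGS4 held the TATA motif. None of these matches is a measured binding site.

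The PAR genes differed widely in level in wild-type cells. Levels are compared between genes in the authors' deposited FPKM, which divides by gene length. F2R led with 96.5 ± 5.28 FPKM, followed by F2RL1 with 41.7 ± 1.47, F2RL2 with 0.728 ± 0.0744 and F2RL3 with 0.161 ± 0.0533 (SD, n = 3 each). The FPKM ranges of neighbours in that order did not overlap. F2R, the thrombin receptor gene, thus stood far above both other genes for thrombin-cut receptors.

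F2R had 102, 92.3 and 94.8 FPKM in wild-type libraries 1, 2 and 3, and 53.6, 61.5 and 59.5 FPKM in knockout clones 21, 22 and 23. On fibronectin the same clones had 42.4, 51.8 and 58.8 FPKM. Every knockout library lay under every wild-type library, with or without fibronectin, while the untreated and treated clones overlapped. By edgeR on the counts F2R was 1.63-fold lower in knockout (log2 fold change -0.71, SE 0.10) and 1.84-fold lower in knockout on fibronectin (-0.88, SE 0.10).

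F2RL1, the PAR2 gene, showed the greatest difference among the receptors in the untreated clones. It had 42.2, 40.1 and 43.0 FPKM in the wild-type libraries, 6.86, 6.53 and 6.80 FPKM in the knockout clones and 4.62, 5.17 and 5.27 FPKM on fibronectin. All 3 groups were apart, with wild-type highest and the treated clones lowest. The difference from wild-type was 6.11-fold in knockout (log2 fold change -2.61, SE 0.07) and 8.08-fold in knockout on fibronectin (-3.01, SE 0.07).

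F2RL2, the PAR3 gene, was scarce. Counts were 71, 96 and 89 for the wild-type libraries, 15, 18 and 18 for the untreated clones and 7, 7 and 21 for the treated clones. The wild-type libraries were higher than all others, and in clone 23 the treated library did not lie below the untreated library. In CPM the level went from 2.92 ± 0.303 for wild-type to 0.611 ± 0.0414 for untreated and 0.388 ± 0.203 for treated clones (SD, n = 3 each), with log2 fold changes of -2.25 (SE 0.25) and -2.85 (SE 0.27). F2RL2 lies within the span of IQGAP2 on the other strand in the annotation, and whether counting used the strand was not stated, so its counts are uncertain. IQGAP2, a scaffold protein gene, had 105 counts over the 3 wild-type libraries, 142 over the untreated and 160 over the treated clones, and its log2 fold change in knockout was 0.49 (SE 0.30, adjusted p = 0.201 by edgeR).

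F2RL3, the PAR4 gene, was near the detection limit in every group, with 12, 21 and 12 counts for wild-type, 19, 13 and 18 for untreated and 22, 24 and 10 for treated clones. The 3 groups overlapped. Its log2 fold change was 0.22 (SE 0.41) in knockout and 0.37 (SE 0.41) on fibronectin against wild-type.

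**Figure D1:**
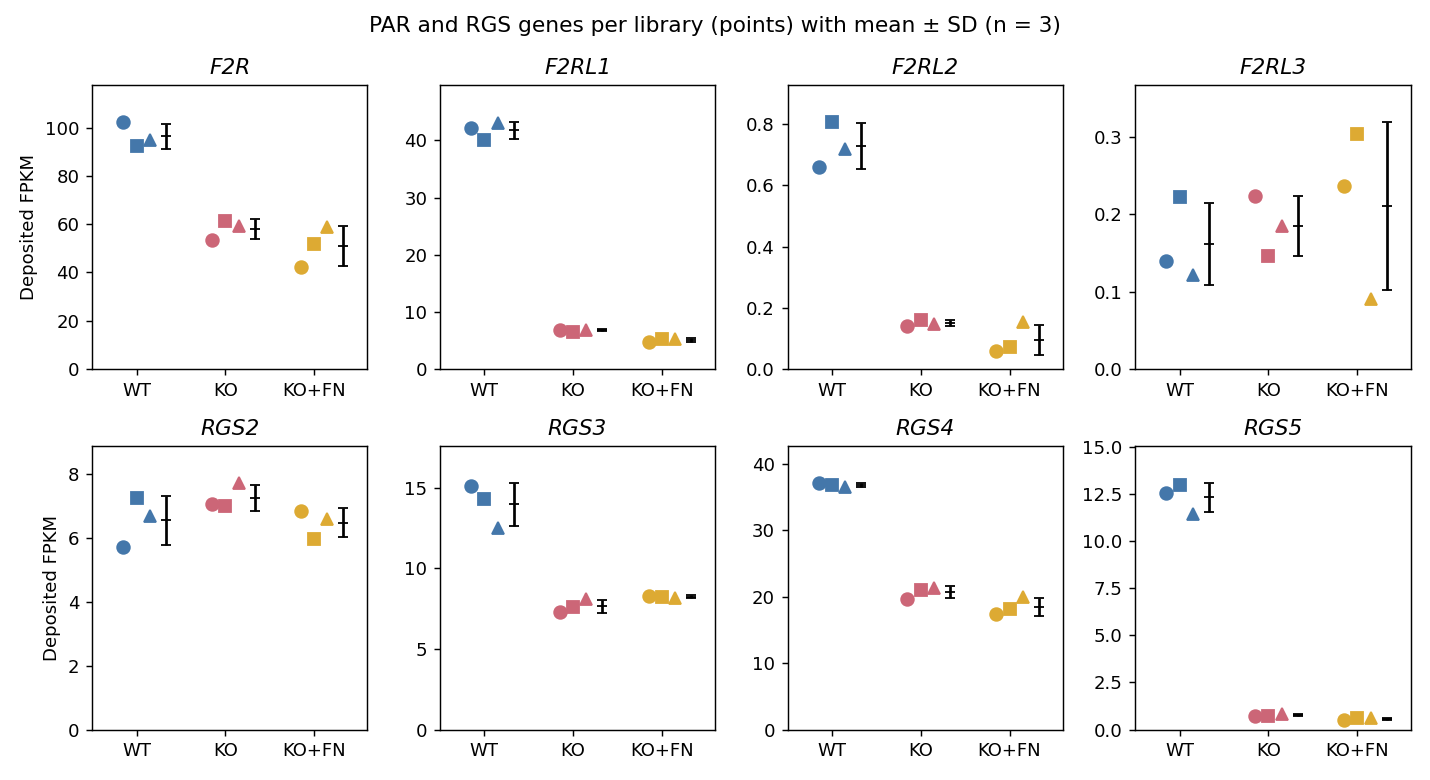
Deposited FPKM of the 8 genes in each library (points, where circle, square and triangle are wild-type libraries 1, 2 and 3 or clones 21, 22 and 23), with mean and SD of 3 libraries in black, on linear axes from 0. Wild-type libraries stand above both knockout groups for F2R, F2RL1, F2RL2, RGS3, RGS4 and RGS5, and the wild-type libraries overlap both knockout groups for F2RL3 and RGS2.

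Because the receptors differed by unequal amounts, the make-up of the family was not the same in the knockout. F2RL1 held 30.0 ± 1.0% of the summed FPKM of the 4 PAR genes for wild-type, 10.35 ± 0.875% for untreated and 8.99 ± 0.794% for treated clones (SD, n = 3 each). F2R held 69.3 ± 1.04%, 89.1 ± 0.952% and 90.45 ± 0.925% in the same groups. The ratio of F2R to F2RL1 in FPKM was 2.21 to 2.43 in wild-type, 7.81 to 9.42 in knockout and 9.17 to 11.2 on fibronectin. The summed level of the family was 139 ± 5.97 FPKM for wild-type, 65.25 ± 3.97 for untreated and 56.3 ± 8.57 for treated clones (SD, n = 3 each). F2RL2 and F2RL3 together made up under 1% in every library.

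Among the regulators, RGS5 differed most. RGS5 is a small RGS protein that acts on Gi and Gq and whose gene is widely used as a marker of pericytes, the cells that wrap capillaries. It had 12.5, 12.96 and 11.4 FPKM in wild-type libraries 1, 2 and 3, 0.723, 0.740 and 0.843 FPKM in clones 21, 22 and 23, and 0.529, 0.623 and 0.613 FPKM in those clones on fibronectin. As for F2RL1, all 3 groups were apart, in the same order. The difference from wild-type was 15.7-fold in knockout (log2 fold change -3.97, SE 0.09) and 20.3-fold in knockout on fibronectin (-4.34, SE 0.09).

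Since RGS5 marks pericytes, the markers of pericytes and smooth muscle were read beside it. Of 12 such markers 4 had a mean of at least 1 CPM in wild-type, namely MCAM, SMTN, TAGLN and ACTA2, of which endothelial cells also express MCAM. PDGFRB, a receptor gene used as a marker of pericytes, and CSPG4 had 6 and 3 counts over the 3 wild-type libraries, 1 and 4 over the untreated and 2 and 2 over the treated clones. KCNJ8, which marks pericytes with RGS5, had 0 counts in all 9 libraries. NOTCH3, a receptor of mural cells and too low to test, had 51 counts over the wild-type libraries, 2 over the untreated and 0 over the treated clones. The summed level of the list was 1090 to 1258 CPM in wild-type, 1353 to 1523 in knockout and 1425 to 1523 on fibronectin, most of it MCAM, which rose from 1083 to 1424 CPM. TAGLN fell from 44.6 to 11.2 CPM and SMTN from 50.1 to 22.2 CPM in knockout, and both had a higher mean on fibronectin, 25.9 and 27.6 CPM, where RGS5 was lowest. ACTA2 did not fall, with 3.81 CPM in wild-type, 4.52 in untreated and 4.67 in treated clones, and was not called. MYH11, too low to test, had 0, 10 and 16 counts over the same groups. The part of these markers in the RGS5 difference was not tested. The spans of RGS5 and of NUF2, a kinetochore gene on the other strand, overlap in the annotation, and NUF2 had 36.8 ± 2.06 CPM in wild-type and 30.9 ± 2.55 in knockout (SD, n = 3 each). Its log2 fold change was -0.25 (SE 0.09, adjusted p = 0.0314 by edgeR), and the part of overlapping reads in RGS5 was not tested.

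RGS4, another small RGS protein of Gi and Gq, was the most abundant of the 4 regulators. It had 37.1, 36.8 and 36.5 FPKM in wild-type, 19.7, 21.05 and 21.3 FPKM in knockout and 17.3, 18.1 and 19.9 FPKM on fibronectin. Wild-type libraries were higher than all others, and treated and untreated clones overlapped in range. RGS4 was 1.75-fold lower in knockout (log2 fold change -0.81, SE 0.06) and 1.94-fold lower on fibronectin (-0.96, SE 0.06).

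RGS3, whose longer isoforms carry further domains beside the RGS domain, had 15.1, 14.3 and 12.5 FPKM in wild-type and 7.31, 7.58 and 8.11 FPKM in knockout. It had 8.31, 8.25 and 8.14 FPKM on fibronectin. Wild-type was again highest, but the treated clones lay slightly above the untreated clones. The log2 fold change from wild-type was -0.84 (SE 0.07) in knockout and -0.72 (SE 0.07) on fibronectin.

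RGS2, which acts mainly on Gq, did not follow the other regulators. It had 5.73, 7.24 and 6.69 FPKM in wild-type, 7.05, 6.99 and 7.73 FPKM in knockout and 6.85, 5.97 and 6.61 FPKM on fibronectin. Wild-type overlapped both knockout groups, and the treated clones lay below the untreated clones in FPKM but overlapped them in CPM. Its log2 fold change from wild-type was 0.17 (SE 0.11) in knockout and 0.02 (SE 0.11) on fibronectin.

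**Figure D2:**
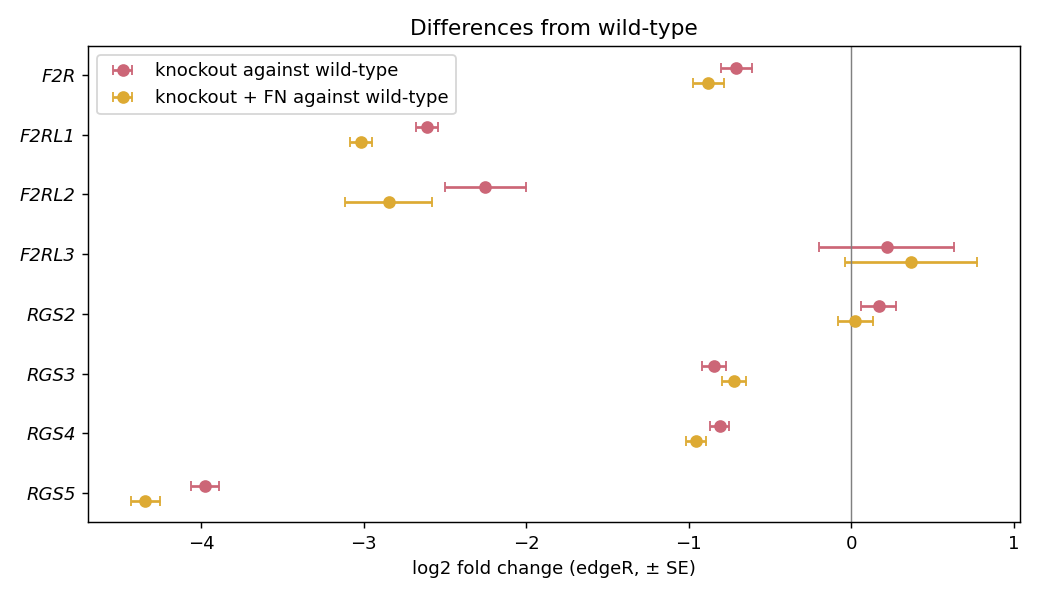
Log2 fold change from wild-type by edgeR, with a standard error derived from its F statistic. The knockout clones and the same clones on fibronectin share their 3 wild-type libraries. RGS5 (-3.97 and -4.34), F2RL1 (-2.61 and -3.01) and F2RL2 (-2.25 and -2.85) lie farthest from 0, and RGS2 (0.17 and 0.02) and F2RL3 (0.22 and 0.37) lie above 0.

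In the order of wild-type levels RGS4 led with 36.8 ± 0.306 FPKM, followed by RGS3 with 14.0 ± 1.33, RGS5 with 12.3 ± 0.781 and RGS2 with 6.55 ± 0.764 (SD, n = 3 each), and the ranges of RGS3 and RGS5 overlapped. In knockout the order was RGS4, RGS3, RGS2 and RGS5, with overlapping ranges for RGS3 and RGS2. RGS5 made up 17.65 ± 0.573% of the summed FPKM of the 4 regulators for wild-type, 2.11 ± 0.0956% for untreated and 1.74 ± 0.146% for treated clones. RGS2 made up 9.41 ± 1.12%, 19.95 ± 0.632% and 19.2 ± 1.36% in the same groups (SD, n = 3 each). RGS4 over RGS5 in FPKM was 2.84 to 3.19 in wild-type, 25.3 to 28.4 in knockout and 29.03 to 32.8 on fibronectin.

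**Figure D3:**
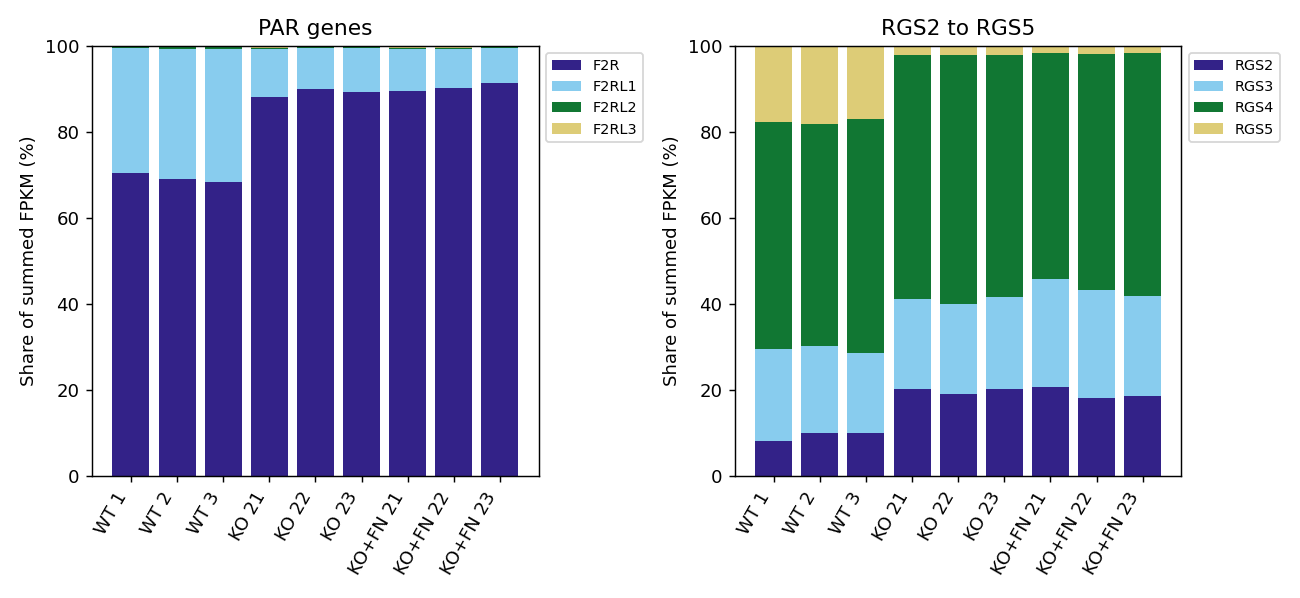
Share of the summed deposited FPKM held by each PAR gene (left) and by each of RGS2 to RGS5 (right), 1 bar per library. F2RL1 goes from at most 31.0% of the PAR sum in wild-type libraries to at most 11.3% in knockout libraries, and RGS5 from at most 18.2% of the RGS sum to at most 2.22%.

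Of the 8 genes, 6 were past the edgeR threshold of an adjusted p under 0.05 and lower in knockout than in wild-type, as were 27.0% of all 13802 genes tested, and 50.1% were past it in either direction. The same 6 genes lay lower in knockout on fibronectin, where 29.6% of all genes did, and 58.7% in either direction. The CPM of knockout and wild-type did not overlap for those 6 genes, as for 61.5% of all genes (64.3% for the treated clones). Since the genes were picked with these differences known, nothing is read from these shares. All 8 passed the filter on low counts, F2RL2 with under 10 counts in 2 of the 3 treated libraries.

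The libraries of knockout clones with and without fibronectin ask what the coating changed, and this difference can be followed within each clone. F2RL1 was lower on fibronectin in 3 of 3 clones, by log2 differences of -0.52, -0.32 and -0.37 in clones 21, 22 and 23. RGS5 was also lower in 3 of 3 clones, by -0.40, -0.23 and -0.46. RGS4 was lower in 3 of 3 clones as well, by -0.14, -0.21 and -0.10. F2R differed by -0.29 and -0.24 in clones 21 and 22 and by only -0.01 in clone 23. RGS3 went the other way in clones 21 and 22, by 0.23 and 0.13, and differed by only 0.01 in clone 23. How many of all genes share 1 direction in 3 clones was not counted, so nothing is read from such agreement. F2RL2 was lower in clones 21 and 22 (-1.19 and -1.18) but not in clone 23 (0.04), and F2RL3 differed by 0.12, 1.07 and -1.03. The CPM of treated and untreated clones did not overlap for F2RL1, RGS5 and RGS3, as for 25.4% of all genes. RGS2 differed by less than 0.01 in clone 21 and by -0.21 and -0.22 in clones 22 and 23.

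**Figure D4:**
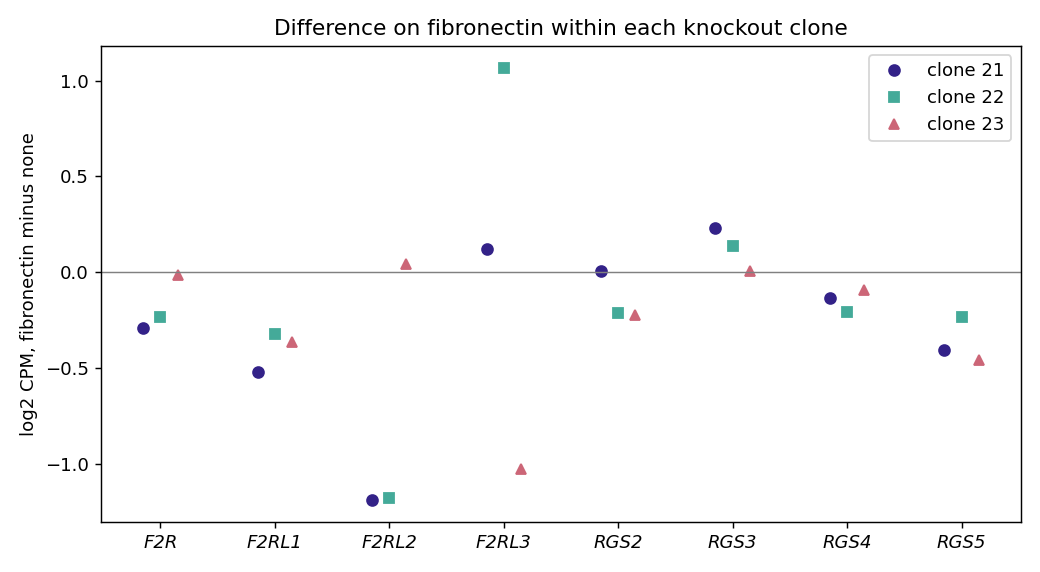
Difference in log2 CPM between the library on fibronectin and the untreated library of the same clone, for each of the 8 genes. F2RL1, RGS5 and RGS4 lie under 0 in all 3 clones, and so does F2R, at only -0.01 in clone 23. The scarce genes F2RL2 and F2RL3 spread over more than 1 log2 unit.

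In the fit over all 9 libraries 0 of the 8 genes passed the edgeR threshold for fibronectin, against 1 of 13802 genes (0.00725%), TAGLN, which was higher (log2 fold change 1.21, SE 0.14, adjusted p = 0.0234) and codes for an actin-binding protein of smooth muscle. The log2 fold changes were -0.40 (SE 0.07, adjusted p = 0.0972) for F2RL1 and -0.37 (SE 0.10, adjusted p = 0.0972) for RGS5. At an unadjusted p under 0.05, 3 of the 8 genes (F2RL1, RGS5 and RGS4) and 22.3% of all genes were counted. With the clone as a block, which the shared clones allow, edgeR called 899 of 13257 genes (6.78%), of which 240 were lower (1.81%). Among the 8 genes it called F2RL1 alone, with a log2 fold change of -0.43 (SE 0.09, adjusted p = 0.0168). RGS5 had -0.39 (SE 0.14, adjusted p = 0.0749), F2R -0.20 (SE 0.07, adjusted p = 0.0634) and RGS4 -0.17 (SE 0.07, adjusted p = 0.119) in that fit. DESeq2 called F2RL1 (adjusted p = 0.00053) and RGS5 (adjusted p = 0.0358) without the block, and edgeR called F2RL1 without treated clone 22 (adjusted p = 0.0407). In the authors' deposited table of this comparison F2RL1 had a log2 fold change of -0.35 with an adjusted p of 0.0326, and RGS5 had -0.24 with 0.396. Whether the fibronectin difference helped to pick the genes is not known, so these p-values are not independent evidence.

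Genes of proteases that cut PARs, and of cofactors and receptors of thrombin, protein C and factor VII, were next compared between knockout and wild-type. Of 11 such genes 5 had enough counts to test, and 4 rose, 0 fell and 1 did not pass the test. That 1 was F3, the tissue factor gene (log2 fold change 0.34, SE 0.38, adjusted p = 0.479 by edgeR). The median log2 fold change over the 5 was 1.17 against -0.03 over all genes. Of all 13802 genes tested 3180 rose and 3733 fell, 50.1% in either direction. This list and those below were chosen with earlier results of these data known. Nothing about a list is therefore read from its counts or its median. THBD, thrombomodulin, which turns thrombin towards protein C, rose from 10.6 to 40.7 CPM (log2 fold change 1.95, SE 0.08), and PROCR, the endothelial protein C receptor, rose from 313 to 459 CPM (0.55, SE 0.06). MMP1, a collagenase that can cut PAR1, rose from 328 to 1111 CPM (1.76, SE 0.09), and PRSS3, a trypsinogen gene, from 24.1 to 54.2 CPM (1.17, SE 0.10). F2, F7, F10 and PLG, the genes of prothrombin, factor VII, factor X and plasminogen, had at most 1 count per group. PRSS3 has near-identical trypsinogen copies, so its level is uncertain.

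Inhibitors of those proteases did not share a direction, as 2 of 7 tested genes rose, 2 fell and 3 did not pass the test. TFPI2, a Kunitz-type inhibitor, fell from 580, 542 and 563 CPM in wild-type to 29.1, 10.2 and 9.22 CPM in the knockout clones (log2 fold change -5.13, SE 0.65), and SERPINA5, the protein C inhibitor, fell from 0.925 to 0.338 CPM. SERPINE2, a thrombin inhibitor of the cell surface, rose from 112 to 182 CPM (log2 fold change 0.70, SE 0.10) and SPINT2, which inhibits membrane serine proteases, from 0.293 to 2.21 CPM. SPINT2 had 4, 12 and 10 counts in wild-type and passed the filter on low counts through the knockout libraries. TFPI, the tissue factor pathway inhibitor, did not pass the test, with 364 CPM in wild-type and 363 CPM in knockout.

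Downstream of the receptors, 3 of 11 tested G protein alpha subunit genes rose, 5 fell and 3 did not pass the test. GNAI1, a Gi subunit, fell from 38.2 to 20.4 CPM (log2 fold change -0.90, SE 0.07) and GNA13, a subunit of the G12 family, from 84.3 to 62.2 CPM (-0.44, SE 0.06), while GNAZ of the Gi family and GNA14 of the Gq family rose from 1.61 to 5.08 and from 0.977 to 2.89 CPM. Of 11 tested beta and gamma subunit genes 1 rose, 2 fell and 8 did not pass the test, with GNG12 down from 515 to 317 CPM, GNGT2 up from 3.81 to 7.66 CPM and GNB3 down from 3.82 to 2.91 CPM. The 2 lower genes of that list became 1 with DESeq2 and without wild-type 1, wild-type 2, untreated clone 21 or untreated clone 23. In the list of phospholipase C beta and calcium effectors 6 of 12 tested genes rose, 2 fell and 4 did not pass the test. PLCB2 and PLCB4, phospholipases that Gq activates, rose from 0.939 to 7.91 and from 0.127 to 1.13 CPM, PRKCE, a protein kinase C, from 40.0 to 96.5 CPM, and ITPR3, a calcium release channel, from 83.1 to 198 CPM. PLCB4 had 4, 4 and 3 counts in wild-type and passed the filter on low counts through the knockout libraries.

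Of 16 genes for receptor kinases, arrestins and PAR sorting 7 rose, 4 fell and 5 did not pass the test. GRK5, a kinase that desensitizes PAR1, rose from 30.7 to 69.2 CPM (log2 fold change 1.18, SE 0.07), ARRB1, beta-arrestin 1, from 86.3 to 180 CPM (1.06, SE 0.07) and NEDD4L, a ubiquitin ligase, to 61.4 CPM (2.24, SE 0.09), and ADRBK2, the gene of the receptor kinase GRK3, fell from 8.20 to 3.19 CPM (-1.36, SE 0.14).

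Of 17 other RGS genes 9 could be tested, and 4 fell, 0 rose and 5 did not pass the test. Their median log2 fold change was -0.38 against -0.03 over all genes, of which 27.0% fell. RGS20, a regulator of the Gz class, fell from 7.48 to 1.80 CPM (log2 fold change -2.06, SE 0.16), and its close relative RGS17 from 1.23 to 0.242 CPM (-2.33, SE 0.27). RGS17 had 8, 6 and 6 counts in the untreated clones and 6 in each treated clone. It passed the filter on low counts through wild-type alone, so it could hardly have been called higher. RGS7, which pairs with the beta subunit GNB5, fell from 2.45 to 1.11 CPM (-1.15, SE 0.22) and RGS10 from 29.4 to 22.7 CPM (-0.38, SE 0.08). RGS11, RGS12, RGS14, RGS16 and RGS19 did not pass the test in knockout, with log2 fold changes from -0.51 for RGS11 to 0.23 for RGS14. Against wild-type the treated clones had 2 of these 9 genes up, RGS14 and RGS19, and the same 4 genes down.

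Of 6 other genes with an RGS-homology domain 3 fell, 0 rose and 3 did not pass the test. AXIN2, a scaffold and target of WNT signalling, fell from 3.83 to 2.32 CPM, and SNX25, a sorting nexin, and AKAP10, an anchor of protein kinase A, had log2 fold changes of -0.23 and -0.22. Of 7 genes of the N-degron pathway that acts on RGS4 and RGS5 proteins 2 rose, 3 fell and 2 did not pass the test. METAP1 and METAP2, which remove the initiator methionine, rose by log2 fold changes of 0.18 and 0.29, and ATE1, the arginyltransferase, and UBR4, a recognition ligase, had log2 fold changes of -0.48 and -0.30. The 3 lower genes became 1 without wild-type 1, and the 2 higher genes 1 without wild-type 2. ADO, the thiol oxidase that acts on the next residue, had -0.09 (SE 0.07, adjusted p = 0.349 by edgeR). The calls on all these lists use edgeR's adjusted p over all 13802 genes.

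**Figure D5:**
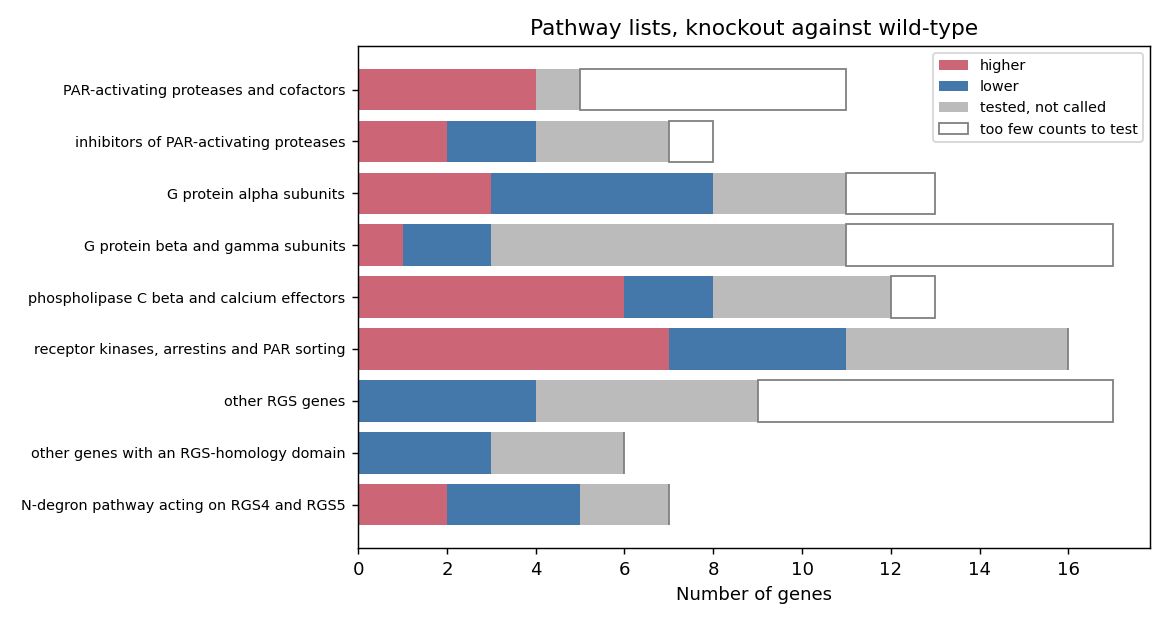
Numbers of genes in each pathway list that were higher, lower or not called in knockout against wild-type (edgeR, adjusted p under 0.05), or had too few counts to test. Of all 13802 genes 3180 were higher and 3733 lower.

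On fibronectin the edgeR fit over all 9 libraries called 0 genes of these 9 lists, and blocking on the clone called 3, which are named here after their values were seen. ORAI1, a calcium channel gene, was higher on fibronectin (log2 fold change 0.49, adjusted p = 0.0219). TFPI2 (-0.50, adjusted p = 0.0141) and MMP1 (-0.26, adjusted p = 0.0257) were lower. They were 1 of 12, 1 of 7 and 1 of 5 genes tested on their lists. The other lists, with 11, 11, 16, 8, 6 and 7 genes tested, had 0 called. Over all genes that fit called 6.78% (899 of 13257), so nothing about the lists is read from these calls.

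F2RL2, F2R and F2RL1 are next to each other on chromosome 5, and RGS4 and RGS5 on chromosome 1, so protein-coding genes on either side were read as well, a choice made after seeing the data. Beside the receptor cluster SV2C and S100Z had 0 counts in all 9 libraries, CRHBP had 1 count in all, and IQGAP2 did not pass the test. Beside RGS4 and RGS5 the neighbours did not share a direction. NUF2, described above, was lower (log2 fold change -0.25, SE 0.09, adjusted p = 0.0314 by edgeR), and C1orf110 and HSD17B7 lie on the other side. C1orf110 fell from 5.92 to 3.03 CPM (log2 fold change -0.96, SE 0.19, adjusted p = 0.000814 by edgeR). HSD17B7, a gene of cholesterol synthesis, rose from 4.88 to 8.79 CPM (0.85, SE 0.11, adjusted p = 1.9e-05).

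Genes whose log2 CPM followed the 8 genes most closely over the 9 libraries were listed with Pearson's r as a description, since the 9 libraries share 3 groups. RGS5 was closest to TNFRSF10D, a decoy death receptor gene (r = 0.999), FN1, the fibronectin gene itself (r = 0.998), and PLXNA4 (r = 0.998), and 1040 of 13801 genes reached 0.95. F2RL1 was closest to DLC1 (r = 0.999), TNFRSF10D (r = 0.998) and GRB10 (r = 0.998), with 1057 genes at 0.95. F2R was closest to FAM196B, ANKRD50 and SAMD4A (r = 0.994, 0.994 and 0.993), and RGS4 to HHIP, DDX58 and LTBP1 (r = 0.998, 0.998 and 0.996). RGS3 was closest to NACAD, PACSIN2 and USP11 (r = 0.998, 0.996 and 0.995) and F2RL2 to PURA, WDR41 and HMGA2 (r = 0.995, 0.994 and 0.992). For RGS2 and F2RL3 0 genes reached 0.95, and the closest were MOCS2 (r = 0.911) and NRL (r = 0.943).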

How the data were processed

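Poly-A libraries of 9 CI-huVEC samples were made with a stranded TruSeq kit per the labels' protocols. STAR, HTSeq and hg19 (GRCh37) are named per the submitters' processing notes. Their versions and the strand setting are not given in the sources. The authors deposited raw counts and FPKM per gene symbol and library, and the log2 fold change, standard error and p-value of each gene in their own tests. Deposited FPKM were proportional to count over a length per gene, within 0.00811% at the 99th percentile over 6408 genes, and were used to compare levels between genes. 0 columns had no sample.

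A single edgeR model (version 4.0.16, under R 4.3.3) was fitted to the counts of all 9 libraries after TMM normalization and filterByExpr at a minimum count of 10 and a total of 15, which kept 13802 genes, and contrasts used robust quasi-likelihood F tests. The SE given with an edgeR log2 fold change was derived from that test, as the absolute log2 fold change over the square root of F. Adjusted p-values are Benjamini-Hochberg over all tested genes, with a threshold of 0.05. The model was tested on simulated data. No pair of libraries of a group matched within sampling noise (chi-square over degrees of freedom 5.37 to 21.8). Alternatives were RLE size factors, no filter, DESeq2 1.42.0, fits of the compared groups only, each library left out, and the clone as a block.

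Treated and untreated clones share their clone numbers in the labels, and deviations from group means correlated across 10098 genes at 0.31, 0.43 and 0.51 within a clone, against -0.48 to 0.06 between clones. Deviations of 3 libraries from their own mean sum to 0. Positive values within clones therefore push the values between clones below 0 on average, and these are no separate check. The 8 genes and the gene lists were chosen with earlier results of these data known. Genes named from a list are up to 4 called members with the smallest p-values in knockout against wild-type, and any called on fibronectin. Others are said to be chosen later. Of the lists 1, and of the neighbouring genes 1, are not reported here. The annotation available was on GRCh38, so it served for gene order, overlaps and RefSeq upstream sequences, and not for the counts.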

Additional observations from a re-analysis of the deposited data

How the results depend on the processing

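Differences from wild-type chose the 8 genes, so their ranges over the alternatives are a description. RGS2 in knockout on fibronectin, which was not called, ranged from -0.07 to 0.10 in log2 fold change. Between treated and untreated clones F2RL3, also not called, ranged from -0.19 to 0.54. In knockout RGS5 ranged from -4.05 to -3.91 and F2RL1 from -2.64 to -2.58, and F2RL2 on fibronectin ranged from -3.41 to -2.59. The order of levels was the same with CPM per length as with FPKM. That length was itself derived from the deposited FPKM, so the match was nearly fixed in advance and is no separate check. The comparison of treated with untreated clones depended on the settings. Genes called there were 1 in the fit over 9 libraries, 383 with no low-count filter, 984 with DESeq2, 0 with the compared groups only, 899 with the clone as a replicate block and 3078 at an unadjusted p under 0.05, a count added after seeing the data. Of the 8 genes 0 were called, against 1 with no filter, 2 with DESeq2, 1 with the block and 3 at an unadjusted p. Leaving out 1 library gave 0 to 488 genes and 0 to 1 of the 8, with the highest counts without treated clone 22. The cause was not tested. Of the counts over pathway lists, 29 moved by over 1.5 times under an alternative and 691 did not. Depth limits F2RL3 and F2RL2.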

Other observations

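RGS2 lies on chromosome 1 beside RGS1, RGS13, RGS18 and RGS21, which had 0 counts in wild-type and knockout libraries, and on fibronectin RGS21 had 1 count in all. RGS9, a regulator best known from photoreceptors and striatum, was too low to test, with mean CPM of 0.321 for wild-type, 0.0370 for untreated and 0.0197 for treated clones. GP6, the platelet collagen receptor gene on the list of platelet markers, had 0.0109 CPM in wild-type and 3.55 CPM in knockout, while PPBP, GP9 and P2RY12 of that list had 0 counts in all 9 libraries, and PF4 had means of at most 0.0121 CPM.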
